A study of Xenopus laevis with 6 samples.

Results

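The genes described here belong to the bone morphogenetic protein (BMP) and transforming growth factor beta (TGF-beta) pathways, and 76 of 11303 measured gene symbols were chosen by a rule on their names. A symbol was taken if it began with bmp, acvr, smad, smurf, gdf, tgfb, inhb, msx, chrd, nog, bambi, fst, szl or dlx, or was twsg1, grem1, tll1, lefty or nodal. Each symbol was represented by its brightest probe set, the one with the highest mean log2 intensity over all arrays. The 76 symbols covered 58 gene names, of which 18 had both an L and an S copy, the homeologues of the allotetraploid frog Xenopus laevis. On all 6 arrays, 41 of them lay above the array median and 12 lay under the lower quartile.

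Expression was measured in animal caps, the explanted blastula ectoderm of Xenopus laevis, from embryos made by in vitro fertilization. Every embryo carried an antisense morpholino oligonucleotide (MO) injected animally into all blastomeres at the 4-cell stage, namely 80 ng of Control MO, 40 ng of each of a pair against ERK3 (ERK3 MO1/2), or 40 ng of each of a pair against TFAP2A (TFAP2A MO1/2). Caps were cut at stage 9, grown without other tissue and collected at stage 15, with 2 arrays per group. ERK3 is an atypical MAP kinase, and TFAP2A is a transcription factor of the embryonic ectoderm.

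In the ectoderm of the frog embryo, BMP ligands bind type I and type II receptor kinases, which phosphorylate Smad1 and its close relatives. These Smads join Smad4 in the nucleus and turn on homeobox genes of the Dlx, Msx and Ventx families, and ectoderm with strong BMP signalling becomes epidermis. Secreted antagonists such as Chordin and Noggin hold BMPs away from their receptors, and ectoderm shielded in this way takes a neural path. Activin, Nodal and TGF-beta ligands act through other type I receptors and through Smad2 and Smad3.

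Facts of the whole series set the frame. Median intensity was 23.2 to 24.6 on the 6 arrays, and the lower quartile was 6.36 to 6.96. Among probe sets with a single symbol, 0 carried mapk6, the symbol of ERK3, or the related mapk4. The tfap2a.L probe set read 1126 and 753 in Control MO caps, 1817 and 1425 in ERK3 MO1/2 caps, and 1495 and 1287 in TFAP2A MO1/2 caps. A morpholino blocks translation or splicing and need not lower the level of its target transcript. These levels were therefore not taken as a check of the labels. Of 17 epidermal marker genes, 16 lay above the median on every array, and their summed intensity was 27270 to 27994 in Control MO caps, 20415 to 22045 in ERK3 MO1/2 caps and 15988 to 17756 in TFAP2A MO1/2 caps. Above the median on every array were 4 of 9 neural, 2 of 9 neural crest, 0 of 14 mesoderm and muscle, 4 of 10 endoderm and 5 of 8 cement and hatching gland markers. Over the same groups, the summed neural markers ran from 1268 to 1476, 845 to 1120 and 1008 to 1086, and the gland markers from 2002 to 2543, 528 to 1111 and 655 to 805. The summed neural crest markers ran from 202 to 319, 107 to 179 and 148 to 154, those of mesoderm and muscle from 234 to 292, 119 to 133 and 212 to 265, and those of endoderm from 610 to 1010, 354 to 568 and 478 to 764.

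In ERK3 MO1/2 caps 2 of the 76 symbols fell, 0 rose and 74 did not pass, which is 2.63% called. Of all 11303 symbols 11.8% were called in that comparison, 3.95% higher and 7.88% lower. The genes that fell were the homeobox gene dlx2.L and the activin receptor gene acvr2a.S. The median log2 change of the 76 was -0.10, against 0.01 over all symbols, and single changes ran from -1.28 to 0.55. A call is an adjusted p under 0.05 in limma (Benjamini-Hochberg over all probe sets), and ± after a log2 change is the standard error of that fit with 2 arrays per group.

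TFAP2A knockdown gave 1 call among the 76, a fall of the receptor gene acvr2b.S, with 0 higher and 75 that did not pass, or 1.32% called. Of all symbols 12.3% were called there, 4.91% higher and 7.41% lower. The median change of the 76 was -0.07, against 0.01 over all symbols, and single changes ran from -0.88 to 1.12 apart from that of chrd.1.S, for which the probe set gives only a bound. No member was called in both knockdowns (0 of 76), which were compared with the same control arrays. The share of all symbols called in both was not counted, so this count shows no shortfall. It also depends on the fit. With the replicate number as a block some members were called in both, and the closing section names them. At an unadjusted p under 0.05 there were 17 members in the ERK3 comparison and 19 in the TFAP2A comparison. The share of all symbols under that p was not counted, so neither these counts nor those by role below show an excess. In bulk caps, fewer cells of a type and less RNA per cell cannot be told apart, and the part of the marker lists in any of these values was not tested.

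**Figure D1:**
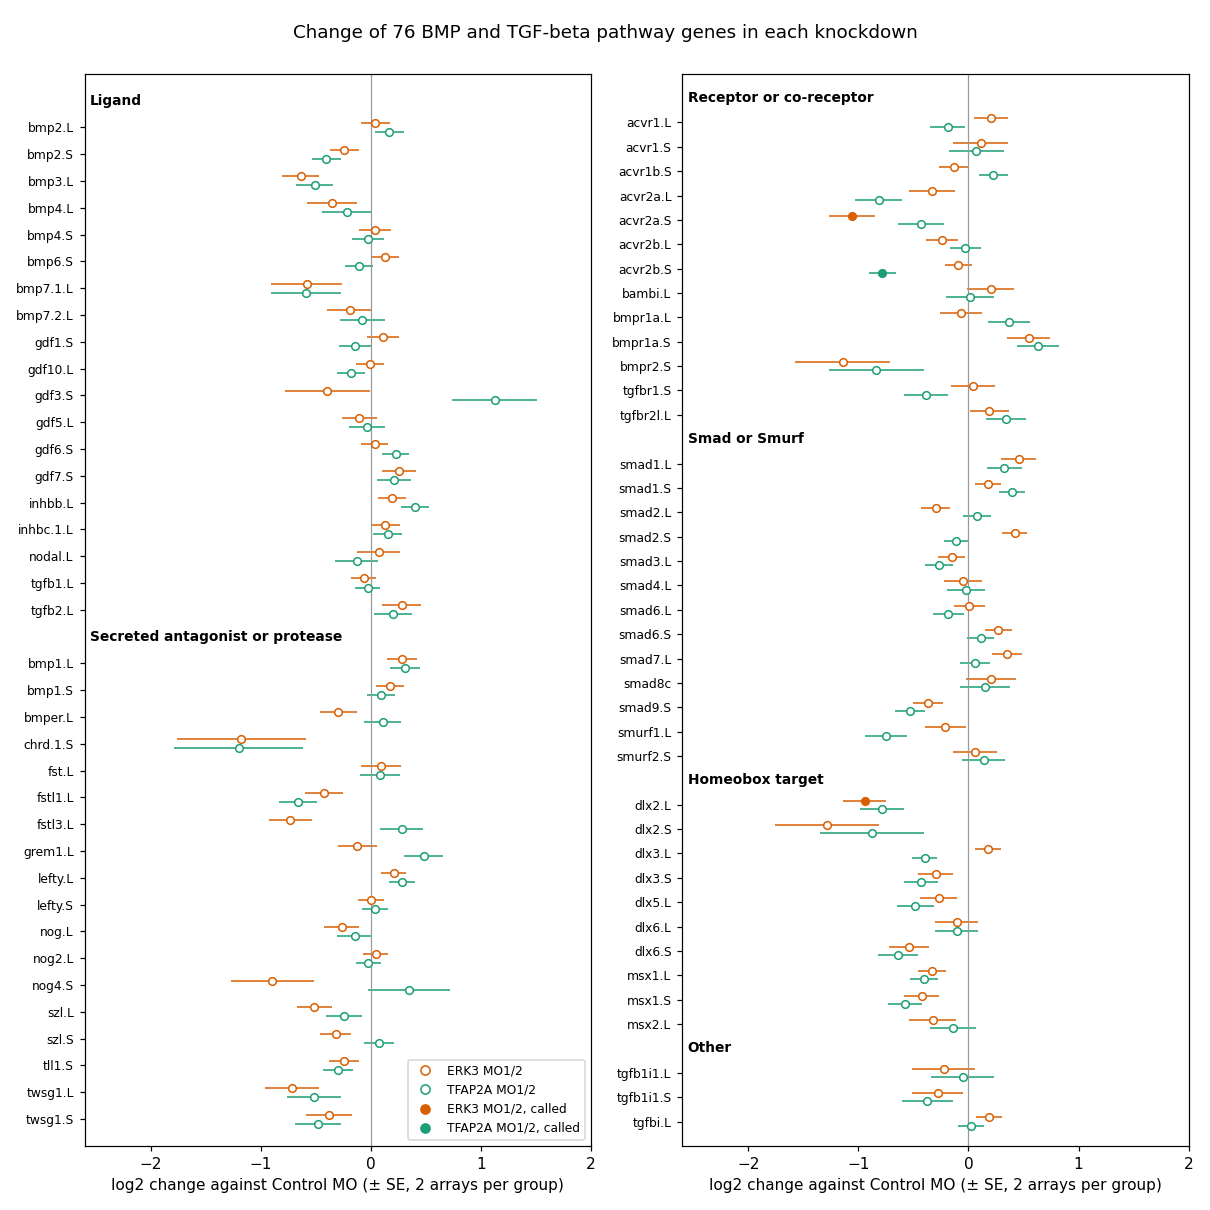
Log2 change of each of the 76 genes against Control MO (x axis), grouped by role, for ERK3 MO1/2 (orange) and TFAP2A MO1/2 (green), with bars for the standard error and filled points for called changes. The 3 filled points, acvr2a.S and dlx2.L in orange and acvr2b.S in green, all lie below 0, and all other points are open. The point of chrd.1.S rests on 1 control array.

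Of the 19 ligand genes, 0 were called in either knockdown by limma (1 and 4 had an unadjusted p under 0.05). Over all symbols 11.8% were called with ERK3 MO1/2 and 12.3% with TFAP2A MO1/2. With so few genes in a role, here and below, a count of 0 does not show a shortfall, and none was tested. The main epidermal inducer bmp4 was measured in both copies. The bmp4.S probe set read 653 and 702 in Control MO caps, 678 and 716 in ERK3 MO1/2 caps, and 604 and 732 in TFAP2A MO1/2 caps. Its groups overlapped, and its changes were 0.04 ± 0.14 in ERK3 MO1/2 caps (95% interval -0.31 to 0.39) and -0.03 ± 0.14 in TFAP2A MO1/2 caps (-0.38 to 0.32). A dimmer bmp4.S probe set changed by -0.22 ± 0.17 and -0.10 ± 0.17 and was called in neither knockdown. For bmp4.L the values were 153 and 212 in Control MO caps, 122 and 163 in ERK3 MO1/2 caps, and 142 and 168 in TFAP2A MO1/2 caps. The groups of bmp4.L overlapped too, with changes of -0.35 ± 0.23 and -0.22 ± 0.23.

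BMP7, which pairs with BMP4 in heterodimers, has a pair of measured genes. The bmp7.1.L probe set read 746 and 1323 in Control MO caps, 545 and 809 in ERK3 MO1/2 caps, and 600.1 and 729 in TFAP2A MO1/2 caps. Its higher control array stood apart from all others, and replicate 2 was the higher array in every group. The changes of -0.58 ± 0.32 (adjusted p = 0.306) and -0.59 ± 0.32 (adjusted p = 0.310) did not pass. In an alternative fit with the replicate number as a block, both falls were called. The bmp7.2.L values were 3286 and 2298 in Control MO caps, 2626 and 2209 in ERK3 MO1/2 caps, and 2729 and 2479 in TFAP2A MO1/2 caps. They overlapped between groups, and the changes were -0.19 ± 0.20 and -0.08 ± 0.20.

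Both copies of bmp2, another BMP ligand gene, read close to the lower quartile. The bmp2.L values were 6.94 and 7.04 in Control MO caps, 6.70 and 7.72 in ERK3 MO1/2 caps, and 8.27 and 7.47 in TFAP2A MO1/2 caps, and those of bmp2.S ran from 5.396 to 7.93 over the 6 arrays. The largest ligand change in ERK3 MO1/2 caps was that of bmp3.L, which encodes a family member that opposes other BMPs. It read 8.81 and 11.9 in Control MO caps, 6.41 and 6.74 in ERK3 MO1/2 caps, and 7.098 and 7.27 in TFAP2A MO1/2 caps. All 4 knockdown arrays lay under both control arrays, but near the lower quartile, and the changes of -0.64 ± 0.17 (adjusted p = 0.0673) and -0.51 ± 0.17 (adjusted p = 0.114) did not pass.

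The largest ligand change in TFAP2A MO1/2 caps was that of gdf3.S, the Derriere gene, whose product induces mesoderm in the frog embryo. It read 43.5 and 27.8 in Control MO caps, 20.0 and 34.97 in ERK3 MO1/2 caps, and 98.7 and 58.3 in TFAP2A MO1/2 caps. Both TFAP2A arrays were above all others, and the ERK3 and control arrays overlapped. The change was 1.12 ± 0.39 with TFAP2A MO1/2 (adjusted p = 0.124) and -0.39 ± 0.39 with ERK3 MO1/2 (adjusted p = 0.569), and the difference between the knockdowns was -1.52 (ERK3 minus TFAP2A, adjusted p = 0.0895). The nodal.L, tgfb1.L and tgfb2.L probe sets, for the mesoderm inducer Nodal and a pair of TGF-beta ligands, read between 3.43 and 6.79 on all arrays, and every value lay under the lower quartile of its array.

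Among the 18 genes of secreted antagonists and the proteases that cleave them, limma called 0 in either knockdown (4 and 2 had an unadjusted p under 0.05). The shares over all symbols were 11.8% and 12.3%. Sizzled, encoded by szl, is itself made under strong BMP signalling and blocks the proteases that cut Chordin. The szl.L probe set read 1686 and 1371 in Control MO caps, 979 and 1161 in ERK3 MO1/2 caps, and 1257 and 1316 in TFAP2A MO1/2 caps. The szl.S probe set read 831 and 735 in Control MO caps, 585 and 671 in ERK3 MO1/2 caps, and 797 and 849 in TFAP2A MO1/2 caps. Both ERK3 arrays were under both control arrays for either copy, while the TFAP2A arrays of szl.S overlapped the controls. With ERK3 MO1/2 the changes were -0.51 ± 0.16 for szl.L (adjusted p = 0.0999) and -0.32 ± 0.14 for szl.S (adjusted p = 0.204), and with TFAP2A MO1/2 they were -0.24 ± 0.16 and 0.07 ± 0.14.

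Chordin and Noggin, the neural inducers of the organizer, had low probe sets. The chrd.1.S values were 3.85 and 15.3 in Control MO caps, 3.58 and 3.21 in ERK3 MO1/2 caps, and 3.41 and 3.26 in TFAP2A MO1/2 caps. Only Control MO replicate 2 lay above its lower quartile. Since all 4 knockdown arrays lay under it, only bounds can be given, set between the control mean and the lower quartile, and chrd.1.S was at least 1.13-fold lower with ERK3 MO1/2 and at least 1.17-fold lower with TFAP2A MO1/2 (adjusted p = 0.260 and 0.256). Both bounds rest on that 1 control array. The nog.L values lay between 3.44 and 4.79 on all 6 arrays, all under the lower quartile.

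Twisted gastrulation, which helps Chordin bind BMPs and is encoded by twsg1, and the tolloid-like protease gene tll1.S were lower on every knockdown array than on either control array by their brightest probe sets. The twsg1.L probe set read 406 and 457 in Control MO caps, 234 and 293 in ERK3 MO1/2 caps, and 239 and 379 in TFAP2A MO1/2 caps. Its changes were -0.72 ± 0.25 (adjusted p = 0.126) and -0.52 ± 0.25 (adjusted p = 0.246), and those of twsg1.S were -0.38 ± 0.21 and -0.48 ± 0.21, and none passed. For tll1.S the changes were -0.24 ± 0.14 and -0.30 ± 0.14. All 4 knockdown arrays lay under both control arrays for 18.8% of all symbols. A second twsg1.S probe set overlapped between groups, with changes of -0.10 ± 0.27 and -0.03 ± 0.27, and a second tll1.S probe set changed by -0.94 ± 0.33 and -0.90 ± 0.33, called in neither knockdown. These 3 were chosen after their values were seen.

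Of the 13 receptor and co-receptor genes, limma called 1 lower in each knockdown, acvr2a.S with ERK3 MO1/2 and acvr2b.S with TFAP2A MO1/2. That is 7.69% in each, against 11.8% and 12.3% of all symbols, and shows no excess. Both genes encode type II receptors that bind activins and several BMPs. The acvr2a.S probe set read 55.2 and 54.7 in Control MO caps, 24.4 and 28.4 in ERK3 MO1/2 caps, and 33.4 and 49.7 in TFAP2A MO1/2 caps. No knockdown array reached the control level, and the ERK3 arrays were the lowest. Expression of acvr2a.S fell by 1.06 ± 0.21 on the log2 scale in ERK3 MO1/2 caps (adjusted p = 0.0328), while the change of -0.43 ± 0.21 in TFAP2A MO1/2 caps did not pass (adjusted p = 0.253). The call was lost without any 1 of the 2 control or 2 ERK3 arrays, where the change ran from -1.17 to -0.95. The other copy, acvr2a.L, read 147 and 109 in Control MO caps, 104 and 98.2 in ERK3 MO1/2 caps, and 83.7 and 61.9 in TFAP2A MO1/2 caps. Its order was the reverse, with the TFAP2A arrays lowest, and its changes were -0.33 ± 0.21 in ERK3 MO1/2 caps and -0.82 ± 0.21 in TFAP2A MO1/2 caps (adjusted p = 0.374 and 0.0621). The acvr2a.L gene was singled out as the partner of a called copy.

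The acvr2b.S probe set read 306 and 333 in Control MO caps, 305 and 293 in ERK3 MO1/2 caps, and 179 and 192 in TFAP2A MO1/2 caps. The TFAP2A arrays were clear of the other 4, and both ERK3 arrays lay under both control arrays by a small margin. It fell by 0.79 ± 0.12 with TFAP2A MO1/2 (adjusted p = 0.0179), and its change with ERK3 MO1/2 was -0.09 ± 0.12 (adjusted p = 0.682). Its call with TFAP2A MO1/2 was lost without any 1 of the control or TFAP2A arrays, where the change ran from -0.85 to -0.72. A second acvr2b.S probe set, reading 9.06 to 11.5, changed by -0.07 ± 0.15 with TFAP2A MO1/2, and with the mean of both probe sets the change was -0.43 (adjusted p = 0.0637) and was not called. The L copy, acvr2b.L, read 26.4 and 27.1 in Control MO caps, 23.5 and 21.8 in ERK3 MO1/2 caps, and 29.0 and 23.7 in TFAP2A MO1/2 caps. Its TFAP2A arrays lay on either side of the controls, with a change of -0.03 ± 0.14.

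The BMP type I receptor gene bmpr1a had a bmpr1a.S probe set that read 92.4 and 69.3 in Control MO caps, 113 and 121 in ERK3 MO1/2 caps, and 110.1 and 140 in TFAP2A MO1/2 caps. All 4 knockdown arrays were above both control arrays, as for 17% of all symbols. The changes of 0.55 ± 0.19 (adjusted p = 0.134) and 0.63 ± 0.19 (adjusted p = 0.0957) did not pass. The bmpr1a.L values were 472 and 505 in Control MO caps, 406 and 535 in ERK3 MO1/2 caps, and 564 and 706 in TFAP2A MO1/2 caps, with changes of -0.07 ± 0.19 and 0.37 ± 0.19. The largest receptor change in each knockdown was that of bmpr2.S, the BMP type II receptor gene other than those named, called in neither. It read 35.7 and 75.6 in Control MO caps, 18.2 and 30.5 in ERK3 MO1/2 caps, and 23.7 and 35.7 in TFAP2A MO1/2 caps. The control arrays differed from each other by about as much as the groups did, and replicate 2 was the higher array in every group. The changes were -1.14 ± 0.43 and -0.84 ± 0.43 (adjusted p = 0.153 and 0.279). Both falls were called with the replicate number as a block. The pseudoreceptor gene bambi.L, which BMP signalling turns on and whose product dampens it, read 850 and 687 in Control MO caps, 1020 and 758 in ERK3 MO1/2 caps, and 871 and 684 in TFAP2A MO1/2 caps. Its groups overlapped, with changes of 0.20 ± 0.21 and 0.01 ± 0.21.

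Of the 13 Smad and Smurf genes, limma called 0 in either knockdown (4 and 3 had an unadjusted p under 0.05), and the median change was 0.06 in each. All symbols were called at 11.8% and 12.3%. The smad1.L probe set, for the Smad that carries the BMP signal, read 1012 and 877 in Control MO caps, 1428 and 1167 in ERK3 MO1/2 caps, and 1242 and 1119 in TFAP2A MO1/2 caps. For smad1.S the values were 512 and 476 in Control MO caps, 558 and 558 in ERK3 MO1/2 caps, and 628 and 671 in TFAP2A MO1/2 caps. Every knockdown array was above both control arrays in these probe sets of either copy, as for 17% of all symbols. Another smad1.S probe set, at 518 and 446 in Control MO caps, 494 and 489 in ERK3 MO1/2 caps, and 554 and 481 in TFAP2A MO1/2 caps, overlapped between all groups, with changes of 0.03 ± 0.14 and 0.10 ± 0.14. The changes were 0.45 ± 0.16 and 0.32 ± 0.16 for smad1.L (adjusted p = 0.129 and 0.258), and 0.18 ± 0.12 and 0.39 ± 0.12 for smad1.S (adjusted p = 0.401 and 0.0926), so none passed.

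The inhibitory Smads, Smad6 and Smad7, are induced by the pathway and shut it down. The smad7.L probe set read 824 and 724 in Control MO caps, 1041 and 933 in ERK3 MO1/2 caps, and 838 and 773 in TFAP2A MO1/2 caps. Only its ERK3 arrays were clear of the controls, and the changes were 0.35 ± 0.14 (adjusted p = 0.165) and 0.06 ± 0.14 (adjusted p = 0.845). The smad6.S values were 300.1 and 314 in Control MO caps, 384 and 358 in ERK3 MO1/2 caps, and 321 and 342 in TFAP2A MO1/2 caps. Those of smad6.L were 139 and 136 in Control MO caps, 147 and 130.3 in ERK3 MO1/2 caps, and 131 and 112 in TFAP2A MO1/2 caps. The smad6.S change was 0.27 ± 0.12 in ERK3 MO1/2 caps and 0.11 ± 0.12 in TFAP2A MO1/2 caps, and that of smad6.L was 0.01 ± 0.14 and -0.18 ± 0.14.

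Smurfs are ubiquitin ligases that mark Smads and receptors for breakdown, and smurf1.L had the largest change of its role with TFAP2A MO1/2. It read 23.5 and 16.98 in Control MO caps, 17.3 and 17.2 in ERK3 MO1/2 caps, and 12.9 and 11.01 in TFAP2A MO1/2 caps. The TFAP2A arrays were lowest and the ERK3 arrays lay within the control range, with changes of -0.75 ± 0.19 (adjusted p = 0.0577) and -0.21 ± 0.19 (adjusted p = 0.526). The gene of another BMP Smad, smad9.S, changed by -0.37 ± 0.14 in ERK3 MO1/2 caps and -0.53 ± 0.14 in TFAP2A MO1/2 caps (adjusted p = 0.143 and 0.0602), a gene picked with its values in view.

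For the 10 homeobox genes of the Dlx and Msx families, most changes lay below 0 in both knockdowns. Both the L and the S copies of dlx2, dlx3, dlx6 and msx1 are among them. The counts that follow are therefore not of 10 independent genes. By brightest probe set, their median change was -0.33 in ERK3 MO1/2 caps and -0.46 in TFAP2A MO1/2 caps, against medians of 0.01 over all symbols. Of these 10 changes, 9 and 10 lay below 0. By limma 1 fell in ERK3 MO1/2 caps and 0 in TFAP2A MO1/2 caps (5 and 7 had an unadjusted p under 0.05). The same fit called 7.88% and 7.41% of all symbols lower. With the replicate number as a block, 2 and 7 of the 10 were called lower. That fit called 27.1% and 27% of all symbols in either direction, and 1931 and 1742 of the 11303 symbols lower. Both arrays of the knockdown lay under both control arrays for 8 of the 10 in each comparison, as they did for 29.9% of all symbols in ERK3 MO1/2 caps and 29.6% in TFAP2A MO1/2 caps. For 7 of the 10, all 4 knockdown arrays lay under both control arrays, as for 18.8% of all symbols. Both knockdowns are read against the same control arrays, and the part of the marker lists in the shift was not tested. The summed epidermal, neural, neural crest and gland markers also lay under both controls on all 4 knockdown arrays. Those of mesoderm and muscle and of endoderm did so only with ERK3 MO1/2. Such sums follow their brightest genes. Among the neural markers tubb2b.S read 453 and 503 in Control MO caps and 166 and 204 in ERK3 MO1/2 caps, while sox2.L and zic1.S changed by 0.12 and 0.31 there. Of the 9 neural crest markers 4 lay under the lower quartile on every array. The median change was -0.33 and -0.26 for the epidermal, -0.29 and -0.52 for the neural, -0.22 and -0.11 for the neural crest, and -1.11 and -1.38 for the gland markers. It was -0.39 and -0.27 for the mesoderm and muscle markers and -0.50 and 0.14 for the endoderm markers.

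The dlx2.L probe set read 369 and 390 in Control MO caps, 236 and 165 in ERK3 MO1/2 caps, and 205 and 236 in TFAP2A MO1/2 caps. All knockdown arrays were below the controls, and the knockdowns overlapped each other. Expression of dlx2.L fell by 0.94 ± 0.20 with ERK3 MO1/2 (adjusted p = 0.0380), and the change of -0.79 ± 0.20 with TFAP2A MO1/2 did not pass (adjusted p = 0.0584). The call was lost without any 1 of the 6 arrays (adjusted p from 0.0578 to 0.164), with changes from -1.21 to -0.68. The S copy had the largest homeobox change in either knockdown. For dlx2.S the values were 547 and 846 in Control MO caps, 185 and 423 in ERK3 MO1/2 caps, and 278 and 495 in TFAP2A MO1/2 caps. They too were below the controls on every knockdown array, but the spread within groups was wide, with replicate 2 higher in every group. The changes of -1.28 ± 0.47 and -0.88 ± 0.47 did not pass (adjusted p = 0.145 and 0.301). Both were called with the replicate number as a block.

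Dlx3 and Dlx5 mark the epidermis and its border with the neural plate. The dlx3.L probe set read 1289 and 1237 in Control MO caps, 1463 and 1396 in ERK3 MO1/2 caps, and 969 and 946 in TFAP2A MO1/2 caps. It was the single homeobox member above 0 with ERK3 MO1/2, at 0.18 ± 0.12, and its change with TFAP2A MO1/2 was -0.40 ± 0.12 (adjusted p = 0.380 and 0.0830). A dimmer dlx3.L probe set changed by -0.02 ± 0.18 and -0.40 ± 0.18, and another by 0.72 ± 0.24 and 0.23 ± 0.24. Neither was called. The dlx3.S values were 1369 and 1312 in Control MO caps, 1178 and 1008 in ERK3 MO1/2 caps, and 1101 and 897 in TFAP2A MO1/2 caps, below the controls in both knockdowns, with changes of -0.30 ± 0.16 and -0.43 ± 0.16. For dlx5.L they were 354 and 383 in Control MO caps, 265 and 352 in ERK3 MO1/2 caps, and 252 and 275 in TFAP2A MO1/2 caps. The dlx5.L changes were -0.27 ± 0.17 and -0.48 ± 0.17 (adjusted p = 0.364 and 0.132). Dlx6 lies beside Dlx5 in vertebrate genomes, and dlx6.S read 190.4 and 187 in Control MO caps, 109 and 154 in ERK3 MO1/2 caps, and 123 and 119.5 in TFAP2A MO1/2 caps. All its knockdown arrays were lower than the controls, with changes of -0.54 ± 0.18 and -0.64 ± 0.18 (adjusted p = 0.123 and 0.0811) that did not pass. It was picked with its values in view.

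Msx1 and Msx2 are homeobox repressors that BMP signalling turns on early. The msx1.L probe set read 649 and 732 in Control MO caps, 529 and 565 in ERK3 MO1/2 caps, and 528 and 515 in TFAP2A MO1/2 caps. The msx1.S values were 301 and 291 in Control MO caps, 229.9 and 211 in ERK3 MO1/2 caps, and 223 and 176 in TFAP2A MO1/2 caps. All knockdown arrays of either copy were below the controls. The changes of msx1.L were -0.34 ± 0.13 and -0.40 ± 0.13, and those of msx1.S were -0.43 ± 0.16 and -0.58 ± 0.16, with adjusted p from 0.0681 to 0.154. In contrast, msx2.L read 215 and 224 in Control MO caps, 149.5 and 205 in ERK3 MO1/2 caps, and 173 and 229.8 in TFAP2A MO1/2 caps. Its TFAP2A arrays overlapped the controls, and its changes were -0.33 ± 0.21 and -0.14 ± 0.21.

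**Figure D2:**
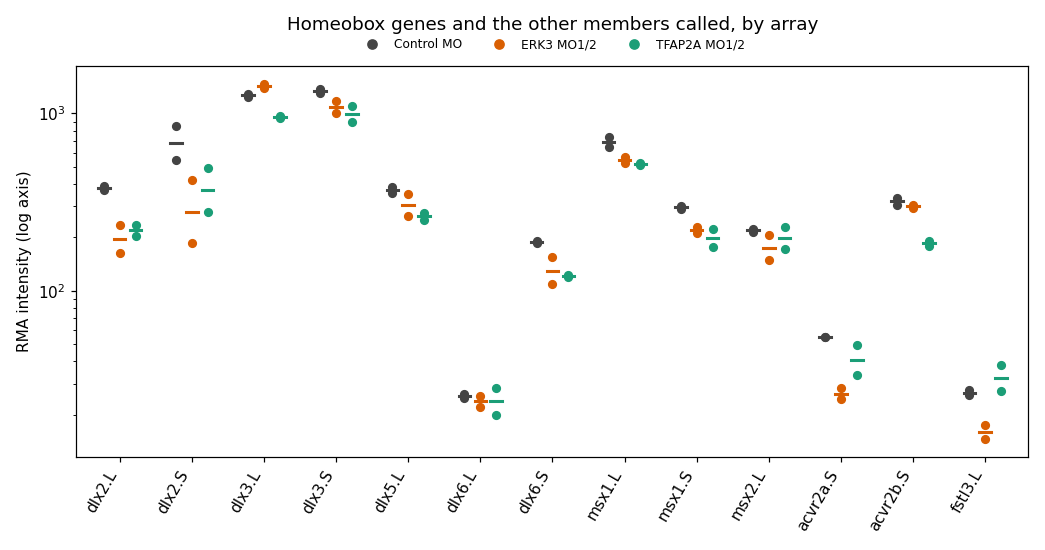
RMA intensity on a log axis of the 10 homeobox genes and of acvr2a.S, acvr2b.S and fstl3.L, with 1 point per array and a bar at the geometric mean of the 2 arrays of a group. In dlx2, dlx3.S, dlx5.L, dlx6.S and msx1 every knockdown point lies under the control points, while dlx3.L in ERK3 MO1/2 caps lies above them.

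The remaining 3 members carry these prefixes without being core pathway parts, the adaptor gene tgfb1i1 in both copies and the matrix protein gene tgfbi.L. The tgfb1i1.S probe set read 6.54 and 9.37 in Control MO caps, 7.62 and 5.46 in ERK3 MO1/2 caps, and 5.83 and 6.28 in TFAP2A MO1/2 caps. Its change with ERK3 MO1/2 was -0.28 ± 0.23 and did not pass, and with TFAP2A MO1/2, where both arrays lay under the lower quartile, it was at least 1.19-fold lower (adjusted p = 0.383).

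The knockdowns were compared directly to find members on which they differed. Of the 76, 1 was higher in ERK3 MO1/2 caps, 1 was lower and 74 did not pass, or 2.63% called, against 5.7% of all symbols, 2.58% higher and 3.11% lower. After a repeated quantile normalization 2 were higher and 1 was lower. The receptor gene acvr2b.S was 0.69 ± 0.12 higher with ERK3 MO1/2 (adjusted p = 0.0385). The follistatin-like gene fstl3.L, whose product binds activins, was called lower there. It read 25.7 and 27.5 in Control MO caps, 17.6 and 14.6 in ERK3 MO1/2 caps, and 38.1 and 27.4 in TFAP2A MO1/2 caps. The ERK3 arrays were the lowest and the TFAP2A arrays overlapped the controls. The difference was -1.01 ± 0.20 (ERK3 minus TFAP2A, adjusted p = 0.0467), and the change against Control MO was -0.73 ± 0.20 in ERK3 MO1/2 caps (adjusted p = 0.0687) and 0.28 ± 0.20 in TFAP2A MO1/2 caps (adjusted p = 0.431). Without any 1 of the 6 arrays both calls of this contrast were lost, and the difference ran from 0.64 to 0.74 for acvr2b.S and from -1.25 to -0.78 for fstl3.L. The acvr2b.S call was also lost with the mean over its probe sets (a difference of 0.47, adjusted p = 0.0721), and the fstl3.L call with limma-trend (adjusted p = 0.0562) and with a constant of 16 added (-0.60, adjusted p = 0.0780). Just short of a call were dlx3.L and smad2.S, chosen after their values were seen, which were 0.58 ± 0.12 and 0.53 ± 0.11 higher with ERK3 MO1/2 (adjusted p = 0.0510 and 0.0615).

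Homeologous copies were set side by side where both were measured. Among 18 pairs they changed with the same sign in 13 in ERK3 MO1/2 caps and in 13 in TFAP2A MO1/2 caps, against the same control arrays. In the direct comparison 9 pairs had the same sign and 9 opposite signs. Both copies were called in 0 pairs, and the share with the same sign over all measured pairs was not counted. The copies of dlx2 lay close, at -0.94 (dlx2.L) and -1.28 (dlx2.S) in ERK3 MO1/2 caps and at -0.79 and -0.88 in TFAP2A MO1/2 caps. Those of smad2, which encodes an activin and Nodal Smad, lay apart with ERK3 MO1/2, at -0.30 (smad2.L) and 0.42 (smad2.S). The smad2.S values were 176 and 183 in Control MO caps, 239 and 239.8 in ERK3 MO1/2 caps, and 164 and 168 in TFAP2A MO1/2 caps, while those of smad2.L were 111 and 107 in Control MO caps, 88.1 and 89.1 in ERK3 MO1/2 caps, and 107 and 123 in TFAP2A MO1/2 caps. In ERK3 MO1/2 caps the S copy was clear above and the L copy clear below the controls, with adjusted p of 0.0729 and 0.197. The difference between copies was not tested, and reads of one copy on the probe set of the other were not examined.

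**Figure D3:**
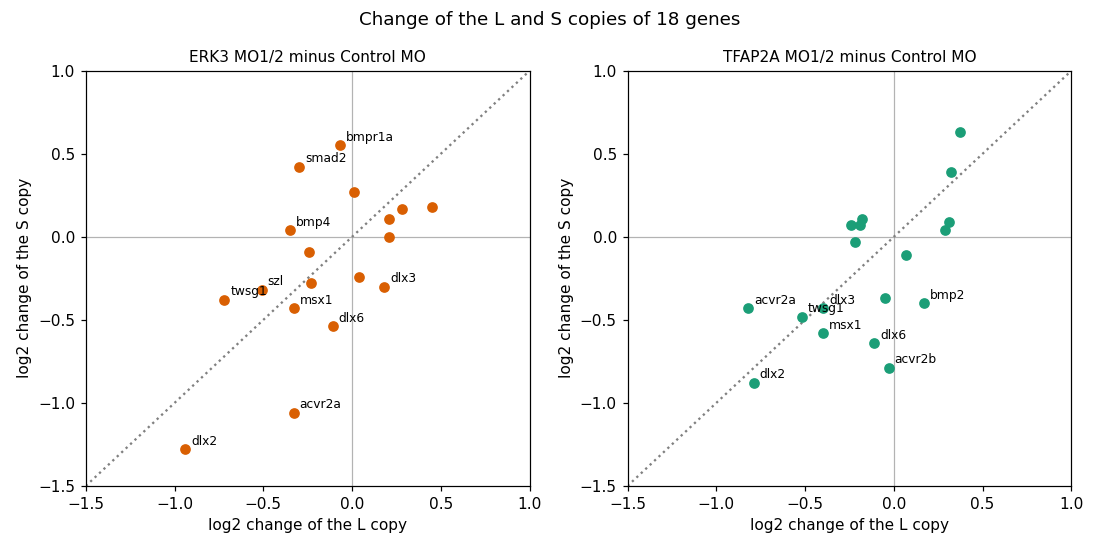
Log2 change against Control MO of the L copy (x axis) and the S copy (y axis) of 18 genes in ERK3 MO1/2 caps (left) and TFAP2A MO1/2 caps (right). The dotted line marks equal change, dlx2 lies near it at the lower left in both panels, and smad2, at -0.30 and 0.42 in the left panel, lies far from it.

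Of the 76 symbols 17 had more than 1 probe set, 101 probe sets in all. Counted over all 101, 1 was called higher and 3 lower with ERK3 MO1/2, 0 higher and 1 lower with TFAP2A MO1/2, and 1 higher and 2 lower in the direct comparison. The share called over all fitted probe sets was not counted, so these counts show neither an excess nor a shortfall. The probe sets called in addition with ERK3 MO1/2, chosen after their values were seen, belong to smad2.L and smurf2.S. A dimmer smad2.L probe set read 35.7 and 45.1 in Control MO caps and 15.0 and 22.1 in ERK3 MO1/2 caps, with a change of -1.14 ± 0.24 (adjusted p = 0.0372), where the brightest changed by -0.30 ± 0.13. A dimmer smurf2.S probe set read 16.7 and 19.4 in Control MO caps and 36.5 and 30.2 in ERK3 MO1/2 caps, with a change of 0.88 ± 0.16 (adjusted p = 0.0253), where the brightest changed by 0.06 ± 0.20. Probe sets of one symbol thus disagreed in size in both genes.

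A further 74 genes of the pathways lie outside the naming rule, among them Id and Ventx targets, nuclear cofactors, ubiquitin ligases and convertases. With ERK3 MO1/2 5 rose, 5 fell and 64 did not pass, with TFAP2A MO1/2 4 rose, 2 fell and 68 did not pass, and in the direct comparison 0 were higher and 4 were lower with ERK3 MO1/2. These are 13.5%, 8.11% and 5.41% called, against 11.8%, 12.3% and 5.7% of all symbols. The median changes of the 74 were 0.07, -0.02 and 0.05. All these counts are by brightest probe set. Some dimmer ones, picked with their values in view, were called higher. That of dand5.S changed by 2.11, 1.21 and 0.91 in the same order (adjusted p = 0.00701, 0.0113 and 0.0324). Its brightest changed by 1.80, 1.02 and 0.78, with no call (adjusted p from 0.0506 to 0.376). In ERK3 MO1/2 caps a dimmer set of gata2.L rose by 0.83 and of trim33.L by 0.67 (adjusted p = 0.0326 and 0.0362). In TFAP2A MO1/2 caps that of tdgf1.1.L, under the lower quartile on 4 arrays, rose by 0.57 (adjusted p = 0.0387). None of the calls named below held in every fit that left out 1 array. Without Control MO replicate 1 the counts called were 0, 1 and 1, without Control MO replicate 2 they were 0, 0 and 1, and without ERK3 MO1/2 replicate 1 they were 1, 5 and 0. Without ERK3 MO1/2 replicate 2 they were 4, 5 and 0, without TFAP2A MO1/2 replicate 1 they were 5, 2 and 0, and without TFAP2A MO1/2 replicate 2 they were 5, 0 and 0. Where limma called 0, between 11 and 23 of these genes had an unadjusted p under 0.05.

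Id proteins are helix-loop-helix inhibitors and direct BMP targets. The id2.S probe set read 1048 and 1264 in Control MO caps, 304 and 191 in ERK3 MO1/2 caps, and 775 and 865 in TFAP2A MO1/2 caps, and it fell by 2.25 ± 0.24 with ERK3 MO1/2 (adjusted p = 0.00973). It was 1.76 ± 0.24 lower with ERK3 than with TFAP2A MO1/2 (a difference of -1.76, adjusted p = 0.0242). The id4.S values were 259 and 314 in Control MO caps, 120.1 and 116 in ERK3 MO1/2 caps, and 167 and 161 in TFAP2A MO1/2 caps, and id4.S fell by 1.27 ± 0.14 in ERK3 MO1/2 caps and by 0.80 ± 0.14 in TFAP2A MO1/2 caps (adjusted p = 0.00996 and 0.0232). A second id4.S probe set, which read 94.2 and 113 in Control MO caps, 161 and 114 in ERK3 MO1/2 caps, and 103 and 77.0 in TFAP2A MO1/2 caps, was called in neither knockdown, with changes of 0.39 ± 0.23 and -0.21 ± 0.23. The other Id genes measured, id2.L, id3.L and id3.S, changed by -0.38 to -0.27 with ERK3 MO1/2, and none was called. The Ventx target gene ventx1.1.L read 105 and 105 in Control MO caps and 154 and 145 in ERK3 MO1/2 caps and rose by 0.51 ± 0.12 (adjusted p = 0.0466). It was picked with its values in view, and its call was lost without any 1 of the 6 arrays (changes from 0.47 to 0.55). Its other 6 probe sets were not called, with changes from -0.23 to 0.35, and neither were the other 5 Ventx symbols by their brightest probe sets, with changes from -0.62 to 0.11.

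Among regulators of the signal, furin.L, the gene of the convertase that cuts BMP precursors, fell in both knockdowns. It read 272 and 295 in Control MO caps, 172 and 183 in ERK3 MO1/2 caps, and 190.2 and 171 in TFAP2A MO1/2 caps. It fell by 0.68 ± 0.13 and 0.65 ± 0.13 on the log2 scale (adjusted p = 0.0296 and 0.0312). Both calls were lost without any 1 of the 6 arrays, where the changes ran from -0.74 to -0.62 and from -0.73 to -0.57. Its other 3 probe sets, all dimmer, were not called, with changes from -0.66 to 0.02 and from -0.36 to -0.02. Ski is a corepressor that binds Smads, and ski.L rose in both knockdowns, from 16.4 and 11.5 in Control MO caps to 25.1 and 25.7 in ERK3 MO1/2 caps and 27.2 and 26.9 in TFAP2A MO1/2 caps. The rises of ski.L were 0.88 ± 0.19 and 0.98 ± 0.19 (adjusted p = 0.0376 and 0.0283). The ERK3 call of ski.L held in 0 of 6 fits that each left out 1 array (0.63 to 1.14), and its TFAP2A call in 3 of 6 (0.72 to 1.23). For ski.S the changes were 0.62 ± 0.18 in ERK3 MO1/2 caps, which did not pass (adjusted p = 0.0880), and 0.88 ± 0.18 in TFAP2A MO1/2 caps (adjusted p = 0.0364). The gene of Arkadia, rnf111.S, a ubiquitin ligase that removes inhibitory Smads and Ski proteins, read 560.2 and 529 in Control MO caps, 1078 and 913 in ERK3 MO1/2 caps, and 750.0 and 743 in TFAP2A MO1/2 caps. It rose by 0.87 ± 0.13 with ERK3 MO1/2 (adjusted p = 0.0183), and its change of 0.46 ± 0.13 with TFAP2A MO1/2 did not pass. Leaving out 1 array at a time, its rise with ERK3 MO1/2 ran from 0.75 to 0.99.

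The feedback inhibitor gene pmepa1.L, a target of TGF-beta signalling, read 89.1 and 95.9 in Control MO caps, 107 and 108 in ERK3 MO1/2 caps, and 170.0 and 267 in TFAP2A MO1/2 caps. It rose by 1.2 ± 0.22 with TFAP2A MO1/2 (adjusted p = 0.0265), and its change of 0.22 ± 0.22 with ERK3 MO1/2 did not pass. The ubiquitin ligase gene trim33.S, whose product acts on Smad4, rose by 0.81 ± 0.17 with TFAP2A MO1/2 from 7.33 and 9.06 to 14.9 and 13.7 (adjusted p = 0.0351). Its control values lay near the lower quartile. It was lower with ERK3 than with TFAP2A MO1/2 by a difference of -0.90 ± 0.17 (adjusted p = 0.0427). The brighter copy, trim33.L, singled out as its partner, went the other way. Its change was -0.28 ± 0.12 with TFAP2A MO1/2 and its difference 0.55 ± 0.12 (adjusted p = 0.192 and 0.0568), and neither passed.

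The secreted BMP inhibitor Tsukushi had copies that went opposite ways in ERK3 MO1/2 caps. The tsku.S values were 138 and 87.2 in Control MO caps, 43.7 and 34.2 in ERK3 MO1/2 caps, and 96.0 and 116 in TFAP2A MO1/2 caps. Its level fell by 1.5 ± 0.26 on the log2 scale with ERK3 MO1/2 (adjusted p = 0.0233). The tsku.L values, singled out as those of its partner, were 934 and 849 in Control MO caps, 1546 and 1320 in ERK3 MO1/2 caps, and 883 and 990.2 in TFAP2A MO1/2 caps, a rise of 0.68 ± 0.15 with ERK3 MO1/2 (adjusted p = 0.0389). The tsku.L call was lost without any 1 of the 6 arrays (0.57 to 0.80), and a second tsku.L probe set changed by 0.32 ± 0.16 and was not called. Neither copy was called with TFAP2A MO1/2. In the direct comparison tsku.S was lower with ERK3 MO1/2, by a difference of -1.45 ± 0.26 (adjusted p = 0.0384). The direct-comparison calls of id2.S, trim33.S and tsku.S held in 0 of 6 fits that each left out 1 array, and that of runx1.L in 2 of 6.

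Runx1, a transcription factor that can act with Smads, had a runx1.L probe set that read 31.2 and 40.1 in Control MO caps, 10.4 and 14.1 in ERK3 MO1/2 caps, and 41.3 and 35.4 in TFAP2A MO1/2 caps. It fell by 1.55 ± 0.21 in ERK3 MO1/2 caps (adjusted p = 0.0140) and was lower than in TFAP2A MO1/2 caps by a difference of -1.66 ± 0.21 (adjusted p = 0.0215). A second runx1.L probe set changed by -0.35 ± 0.19 with ERK3 MO1/2 and was not called. The last of the genes called by brightest probe set was tfap2a.S, which encodes the AP-2 factor itself and was picked with its values in view. It read 718 and 528 in Control MO caps, 1237 and 1056 in ERK3 MO1/2 caps, and 718 and 742 in TFAP2A MO1/2 caps, and rose by 0.89 ± 0.18 with ERK3 MO1/2 (adjusted p = 0.0362), a call lost without any 1 of the 6 arrays (0.67 to 1.11).

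**Figure D4:**
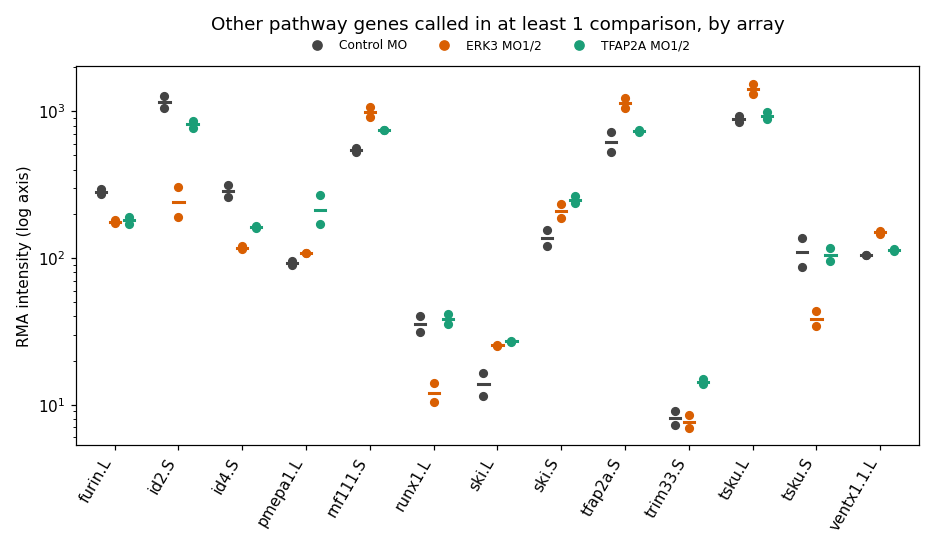
RMA intensity on a log axis of the 13 other pathway genes called in at least 1 comparison by their brightest probe sets. Each array has 1 point, and a bar marks the geometric mean of the 2 arrays of a group. The id2.S, runx1.L and tsku.S points of ERK3 MO1/2 caps lie under all others, and the pmepa1.L points of TFAP2A MO1/2 caps, 170.0 and 267, lie above all others.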

How the data were processed

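The authors deposited probe set intensity values, summarised with RMA (robust multiarray average), for which the software was Expression Console, per the design text of the series, from scans read with GeneChip Operating Software 1.4. The deposited intensity values ran from 2.51 to 14672, a linear scale, and log2 was taken with no constant. RMA aligns array distributions, which can hide a change most transcripts share. Array data carry no depth of reads. The precision came from the spread between the 2 arrays of each group, pooled over the groups and moderated over all probe sets.

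After 96 control probe sets were left out, 32539 probe sets were fitted in R 4.3.3 by limma 3.58.1 (lmFit and eBayes), giving each group its mean, on 3 residual and 2.99 prior degrees of freedom. Tests were two-sided, and Benjamini-Hochberg adjustment was made for each contrast over all of them. The only spread behind a p-value is that between arrays described as biological replicates, moderated by the prior.

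Symbols came from a 2016 platform annotation, and the Entrez identifiers of 75 of the 76 members matched RefSeq with the same symbol (smad8c did not). The 8 probe sets with several symbols were not used. Members and lists were chosen with earlier results of these data known. Genes named were those called, a fixed set of central ligands, antagonists, receptors, Smads and homeobox genes, and the largest change of each role. Of the other pathway genes, up to 6 calls per contrast were named, and further ones are marked in the text. Where a group lay under the lower quartile on both arrays, the fold is a bound against that quartile. The alternatives were a replicate block, a filter on dim probe sets, repeated quantile normalization, an added constant of 16, limma-trend, the mean over a symbol's probe sets, and leaving out each array.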

Additional observations from a re-analysis of the deposited data

How the results depend on the processing

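The counts of called members were 2 with ERK3 MO1/2 (both lower), 1 with TFAP2A MO1/2 (lower) and 2 in the direct comparison (1 higher, 1 lower). With a constant of 16 added they were 1 (higher, so neither of the 2 calls held), 5 (1 higher, 4 lower) and 3 (all higher), with limma-trend 2, 4 and 2 (the last both higher), with the mean over a symbol's probe sets 3, 0 (19 at an unadjusted p under 0.05 by limma) and 3 (1 higher, 2 lower), and without dim probe sets, which left 47 members, 2, 4 and 3 (the last all higher). Leaving out 1 array at a time gave 0 to 1, 0 to 3 and 0, with at least 6, 10 and 5 members at an unadjusted p under 0.05 by limma, and 0 to 5, 0 to 5 and 0 to 1 of the other pathway genes. Among called changes none reversed under any alternative run. The share of all symbols called was counted only for the main fit and for the replicate block. Shifts of the counts in the other runs therefore cannot be told from a shift in calls over all symbols. With the replicate number as a block the counts were 11 (2 higher, 9 lower), 17 (0 higher, 17 lower) and 8, and those of the other pathway genes 22, 19 and 11. All symbols were called at 27.1%, 27% and 17.2% with that block, and the members at 14.5%, 22.4% and 8 of 76. It called 2 of 10 homeobox genes lower with ERK3 MO1/2 and 7 of 10 with TFAP2A MO1/2. The block called bmp3.L, bmp7.1.L, bmpr2.S, dlx2.L, dlx2.S and twsg1.L lower in both knockdowns. With ERK3 MO1/2 alone it called acvr2a.S, fstl3.L and nog4.S lower and smad1.L and smad2.S higher. With TFAP2A MO1/2 alone it called acvr2a.L, acvr2b.S, dlx3.L, dlx3.S, dlx5.L, dlx6.S, fstl1.L, msx1.S, smad9.S, smurf1.L and twsg1.S lower. The deviations of same-numbered arrays from their group means correlated over probe sets at 0.535 to 0.595, but the labels do not say that a number marks a shared batch. The block was therefore kept as an alternative, and where the text gives its calls it names the block. A change said not to pass refers to the fit without the block. Low signal limits the 12 members that lay under the lower quartile on every array, where a change may not be detectable.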
